A study of Mus musculus with 3 samples.

Results

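TRBV26 is the mouse V gene that encodes the Vβ3 chain of the T cell receptor (TCR), and it was examined here across all clonotypes that carried it in CD4, CD8 and double negative (DN) T cells. A clonotype was a distinct nucleotide CDR3 sequence with its V and J gene, and members were all clonotypes whose best matching V gene was TRBV26 and whose J gene was a TRBJ gene. There were 4266 distinct TRBV26 clonotypes among 154480 distinct TCR beta clonotypes, with 2138 in CD4 cells, 1653 in CD8 cells and 720 in DN cells. The 3 libraries came from the spleen of 1 lupus-prone MRL.lpr mouse aged 16 weeks, from which each subset was purified by FACS, and mRNA was taken from 1000000 cells per subset. All the subsets share the lpr mutation of Fas, a death receptor whose loss lets DN T cells accumulate, and no mouse without it was part of these libraries. Each subset had 1 library, so there was no replicate check, and each test below compares libraries and not the subsets of MRL.lpr mice in general. TCR beta reads numbered 133667 in CD4 cells, 150874 in CD8 cells and 194290 in DN cells. A share of 3 reads of the total, about what 0 reads leave possible, was 0.00224%, 0.00199% and 0.00154%. Clonotypes of fewer reads, down to 1, were counted as found. The files give no molecular identifiers, so intervals cover counting error only. The files hold TCR sequences and no CD4, CD8 or CD3 transcripts, so the subset labels could not be checked against such markers.

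The TCR beta chain is joined from a V, a D and a J gene, and the joint forms the CDR3, the loop that meets the peptide in the MHC groove. Vβ3 belongs to the chains that some endogenous superantigens of mouse mammary tumour proviruses bind together with MHC class II, and in strains that carry such a provirus T cells with these chains are deleted in the thymus. A rearrangement out of frame or with a stop codon makes no receptor, and its cell survives through the other allele. The share of these nonproductive rearrangements within a V gene therefore sets its productive clonotypes against a class that is not seen by superantigens. In mRNA libraries such as these, both classes are counted from their transcripts, and transcript levels per cell were not measured. Deletion also spares nonproductive copies of a gene, which makes this share high for a deleted V gene. RefSeq lists Trbv26 under the older names Tcrb-V3 and Tcrb-V3.1, and its neighbours Trbv25 and Trbv27 are both annotated as pseudogenes (GRCm38.p6, used for names and gene order only).

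The TRBV26 label was first set against the sequences. The commonest TRBV26 start of the CDR3 in these libraries was tgtgccagcagtctg, and its first 12 bases opened 81.0% of productive TRBV26 clonotypes in CD4 cells, 82.5% in CD8 cells and 80.0% in DN cells. Only 0.161%, 0.175% and 0.165% of productive clonotypes of the other V genes held the full 15-base start. The largest productive clonotypes of each library and the widely shared ones are shown because clone size and sharing turn on them. Each is written 5′ to 3′, and capitals mark the bases that match neither this V start nor the commonest end of its J gene in these libraries.
CD4 largest, TRBJ2-4: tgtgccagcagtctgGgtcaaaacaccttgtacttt
CD4 in place 2, TRBJ2-1: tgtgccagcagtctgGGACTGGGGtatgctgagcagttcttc
CD4 in place 3, TRBJ2-5: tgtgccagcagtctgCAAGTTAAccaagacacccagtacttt
CD8 largest, TRBJ2-5: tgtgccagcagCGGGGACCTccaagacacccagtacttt
CD8 in place 3, TRBJ2-7: tgtgccagcagtcAGGGtgaacagtacttc
DN largest and CD8 in place 2, TRBJ2-7: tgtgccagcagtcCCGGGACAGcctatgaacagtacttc
DN in place 2, TRBJ2-1: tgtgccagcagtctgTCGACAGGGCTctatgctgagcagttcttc
DN in place 3, TRBJ2-5: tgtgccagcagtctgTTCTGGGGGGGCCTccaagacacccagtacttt
Found in all 3 libraries, TRBJ2-7: tgtgccagcagtGGACAGGagtacttc

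Nonproductive TRBV26 rearrangements were read from the same mRNA, and the largest of each library is shown because the survival measure rests on this class. All of the sequences in this set have a length that is not a whole number of codons.
CD4 nonproductive, TRBJ2-1: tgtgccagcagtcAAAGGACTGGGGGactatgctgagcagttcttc
CD8 nonproductive, TRBJ2-1: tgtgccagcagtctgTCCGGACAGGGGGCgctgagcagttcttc
DN nonproductive, TRBJ1-1: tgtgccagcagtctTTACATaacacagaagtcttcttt

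TRBV26 was most frequent in CD4 T cells and least frequent in DN T cells, with CD8 T cells close to DN. Its share of TCR beta clonotypes was 4.77% in CD4 cells (95% Wilson interval 4.58 to 4.97), 2.04% in CD8 cells (1.94 to 2.13) and 1.72% in DN cells (1.60 to 1.85). The intervals of the 3 libraries did not overlap. By reads the shares were 3.97%, 1.81% and 1.54%, in the same order. Ordered by clonotype share, TRBV26 held place 10 among the V genes of the CD4 library and place 13 in both others.

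The CD4 share was 2.34 times the CD8 share (two-sided Fisher's exact test on clonotypes, Benjamini-Hochberg adjusted p = 3.23e-154), the third highest ratio of the 22 V genes with at least 100 clonotypes. In DN T cells the share was 0.360 times that in CD4 (exact test, adjusted p = 5.40e-146), and 0.843 times that in CD8 T cells (adjusted p = 1.48e-04). Differences of this kind were common: 81.8% of the V genes were at least 25% higher or 20% lower in CD4 than in CD8, 72.7% in DN against CD4 and 63.6% in DN against CD8. TRBV26 passed this fold in both comparisons with CD4 and not in that of DN with CD8 T cells. The V genes whose shares over the 3 libraries ran most like those of TRBV26 were TRBV4 (8.35%, 3.94% and 4.36% in CD4, CD8 and DN T cells), TRBV5 (10.7%, 5.23% and 6.89%) and TRBV30 (0.750%, 0.533% and 0.467%). Their distances from TRBV26, over 3 points of log2 shares centred on each gene's mean, were 0.39, 0.62 and 0.63. In each of these 3 genes, as in TRBV26, the CD4 share was the highest, which follows in part from choosing them by these same shares. TRBV4 and TRBV5 were higher in DN than in CD8 T cells, unlike TRBV26 and TRBV30.

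**Figure D1:**
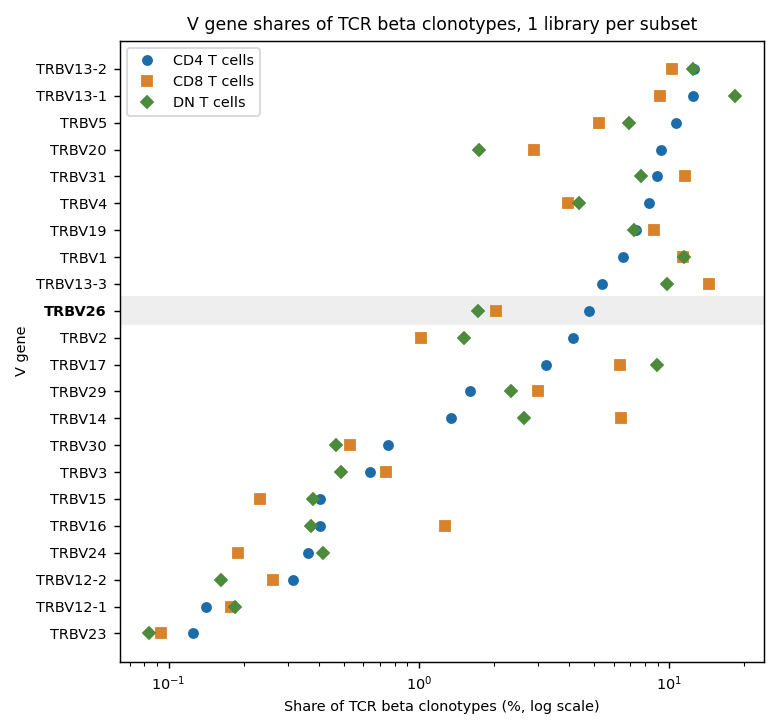
Share of TCR beta clonotypes (%, log scale) held by each of 22 V genes in the CD4, CD8 and DN libraries, ordered by the CD4 share. TRBV26 (grey band) stood at 4.77% in CD4 cells, 2.04% in CD8 cells and 1.72% in DN cells.

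Nonproductive rearrangements were scarce among TRBV26 clonotypes in every library. They numbered 75 of 2138 in CD4 cells, 40 of 1653 in CD8 cells and 35 of 720 in DN cells. As shares these were 3.51% (2.81 to 4.37), 2.42% (1.78 to 3.28) and 4.86% (3.52 to 6.69), against 8.04%, 4.94% and 9.04% for all other V genes of the same libraries. The ratios to the other V genes were 0.436 in CD4 cells (Fisher's exact test, adjusted p = 1.57e-16), 0.490 in CD8 cells (adjusted p = 5.52e-07) and 0.538 in DN cells (adjusted p = 6.14e-05). From the lowest, TRBV26 stood in place 2 of 22 V genes in CD4 cells, 3 in CD8 cells and 3 in DN cells. V genes at least 25% above or 20% below the rest made up 77.3% in CD4 cells, 81.8% in CD8 cells and 81.8% in DN cells, so that departing from the rest was usual and the low end was where TRBV26 lay. Differences in the ratio between libraries did not pass the threshold (Zelen's exact test of equal odds ratios, adjusted p = 0.636 for CD4 against CD8, 0.556 for CD4 against DN and 0.812 for CD8 against DN).

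Several V genes of other superantigen-reactive families had far higher nonproductive shares. TRBV12-1 and TRBV12-2 encode Vβ5 chains, TRBV15 encodes Vβ12 and TRBV16 encodes Vβ11. In CD4 T cells 77.8% of TRBV12-1, 24.1% of TRBV12-2, 79.0% of TRBV15 and 71.7% of TRBV16 clonotypes were nonproductive. The same genes had 28.5%, 14.6%, 61.7% and 13.9% in CD8 T cells, and 83.1%, 72.1%, 80.5% and 48.1% in DN T cells. TRBV26 lay below each of the 4 in each library. TRBV19 (Vβ6) had 8.01%, 4.38% and 9.57% in the CD4, CD8 and DN libraries, and TRBV29 (Vβ7) had 4.72%, 2.21% and 3.27%. Highest in each library was TRBV24, at 82.0%, 84.4% and 88.5%. The lowest was TRBV20 in CD4 (2.97%) and CD8 T cells (2.17%), and TRBV29 in DN T cells.

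**Figure D2:**
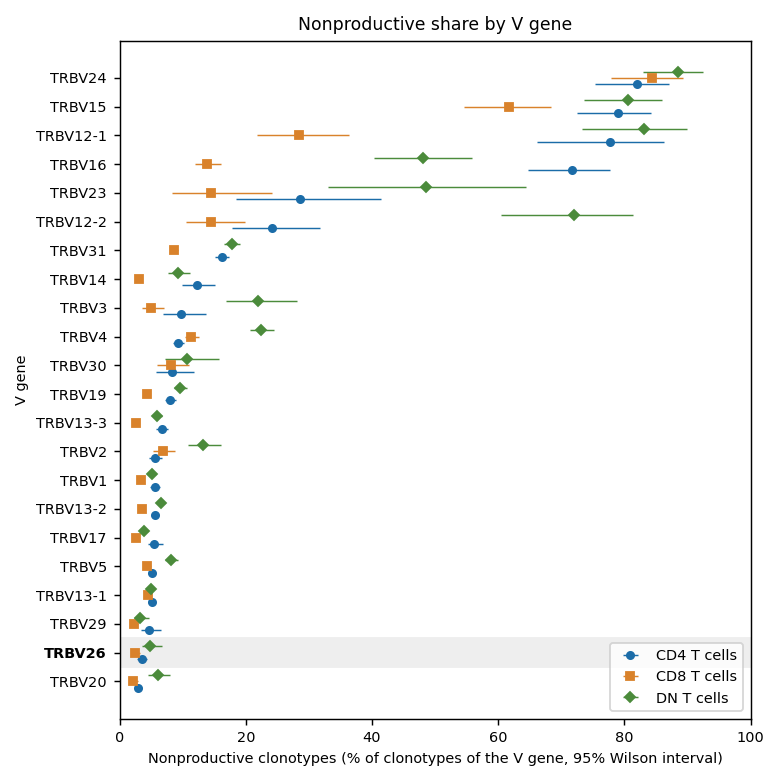
Nonproductive clonotypes as a percentage of all clonotypes of each of 22 V genes, with 95% Wilson intervals, in the CD4, CD8 and DN libraries. TRBV26 (grey band) had 3.51%, 2.42% and 4.86% and lay near the low end, whereas TRBV24, TRBV15 and TRBV12-1 reached 82.0%, 79.0% and 77.8% in CD4 T cells.

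Among the nonproductive TRBV26 clonotypes, 70 of CD4, 38 of CD8 and 31 of DN T cells were out of frame, and the remaining 5, 2 and 4 were in frame with a stop codon. They were small. All nonproductive TRBV26 clonotypes together held 90 reads in CD4 cells, 45 in CD8 cells and 55 in DN cells, which was 1.70%, 1.64% and 1.84% of TRBV26 reads. In the other V genes nonproductive reads made up 5.33%, 3.78% and 4.76%. Merging of near-identical sequences joined only those of equal length, so an insertion or deletion error read as out of frame would remain. The 3 shown above, each the largest of its library, had 4 reads in CD4 cells, 3 in CD8 cells and 10 in DN cells. One nonproductive TRBV26 sequence was found in CD4 and DN T cells alike, and 0 were shared by the other pairs of libraries. Nonproductive sequences of other V genes were not counted in this way, so this is not shown to be particular to TRBV26.

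Productive TRBV26 clonotypes used all 12 TRBJ genes of the libraries, and in CD4 and DN T cells, counted by clonotypes, they used those of the first cluster more often than other V genes did. TRBJ2 genes, the second cluster, made up 58.0% of productive TRBV26 clonotypes in CD4 cells, 67.0% in CD8 cells and 62.2% in DN cells, against 63.7%, 69.4% and 70.8% with the other V genes. The ratio was 0.910 in CD4 cells (Fisher's exact test, adjusted p = 6.67e-07), 0.965 in CD8 cells (adjusted p = 0.0625) and 0.878 in DN cells (adjusted p = 4.54e-06). All were below 1, and the CD8 value did not pass the threshold. Counted by reads, the DN ratio was 0.998 and no longer passed (exact test, adjusted p = 0.872), whereas the CD4 ratio was 0.927. In DN T cells TRBV26 had the third lowest TRBJ2 share of the 22 V genes.

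A pair of J genes of the first cluster was higher in all libraries. TRBJ1-2 was used by 9.02% of productive TRBV26 clonotypes in CD4 cells, 7.75% in CD8 cells and 7.59% in DN cells, against 6.02%, 4.74% and 3.64% with other V genes. Its ratios were 1.50, 1.63 and 2.09 (exact test, adjusted p = 3.25e-06, 2.97e-06 and 1.94e-05). TRBJ1-3 was used by 10.1%, 6.70% and 6.28%, against 5.82%, 4.71% and 3.78%, with ratios of 1.74, 1.42 and 1.66 (exact test, adjusted p = 7.88e-12, 0.00260 and 0.00789). Both genes were above the pooled share of the other V genes in all 3 libraries. A higher TRBJ1-2 share was not particular to TRBV26. In CD4, CD8 and DN T cells its ratios were 1.36, 2.34 and 1.75 with TRBV20, and 1.62, 1.34 and 1.59 with TRBV29. With TRBV5 they were below 1, at 0.595, 0.514 and 0.612. TRBJ1-3 had ratios of 1.24, 1.18 and 1.24 with TRBV13-3, and 0.704, 0.767 and 0.786 with TRBV5.

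The remaining J genes were closer to the other V genes or differed by library. TRBJ2-7, the J gene most used with TRBV26 in all libraries, was at 14.2%, 19.4% and 18.5% against 17.4%, 21.0% and 23.6%, which passed the test in CD4 (ratio 0.817, exact test, adjusted p = 0.00100) and DN T cells (0.787, adjusted p = 0.00893). TRBJ2-5 was at 9.31%, 12.2% and 9.05% and was below the other V genes in CD4 T cells (ratio 0.771, exact test, adjusted p = 8.13e-04). TRBJ2-1 was above them in CD8 T cells (17.1%, ratio 1.22, exact test, adjusted p = 0.00276), and its shares were 11.1% in CD4 and 18.0% in DN T cells. TRBJ2-3 was below in CD8 T cells (6.20%, ratio 0.750, exact test, adjusted p = 0.0108), and TRBJ1-5 was below in CD4 T cells (1.55%, ratio 0.519, adjusted p = 3.83e-04). For TRBJ1-1, TRBJ1-4, TRBJ1-6, TRBJ2-2 and TRBJ2-4 no difference passed the test in any library, although TRBJ2-2 had a ratio of 0.710 in DN T cells. Of the 12 J genes, 5 in CD4 cells, 4 in CD8 cells and 6 in DN cells were at least 25% higher or 20% lower with TRBV26. Over all 264 pairs of V and J genes the same fold was reached by 42% in CD4 cells, 38.6% in CD8 cells and 48.5% in DN cells. TRBV26 thus departed from the rest about as often as all V genes together. These include genes of few productive clonotypes, such as TRBV12-1 with 13 in DN against 685 of TRBV26. Ratios of such genes vary more by counting error, and V genes of similar size were not compared apart.

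**Figure D3:**
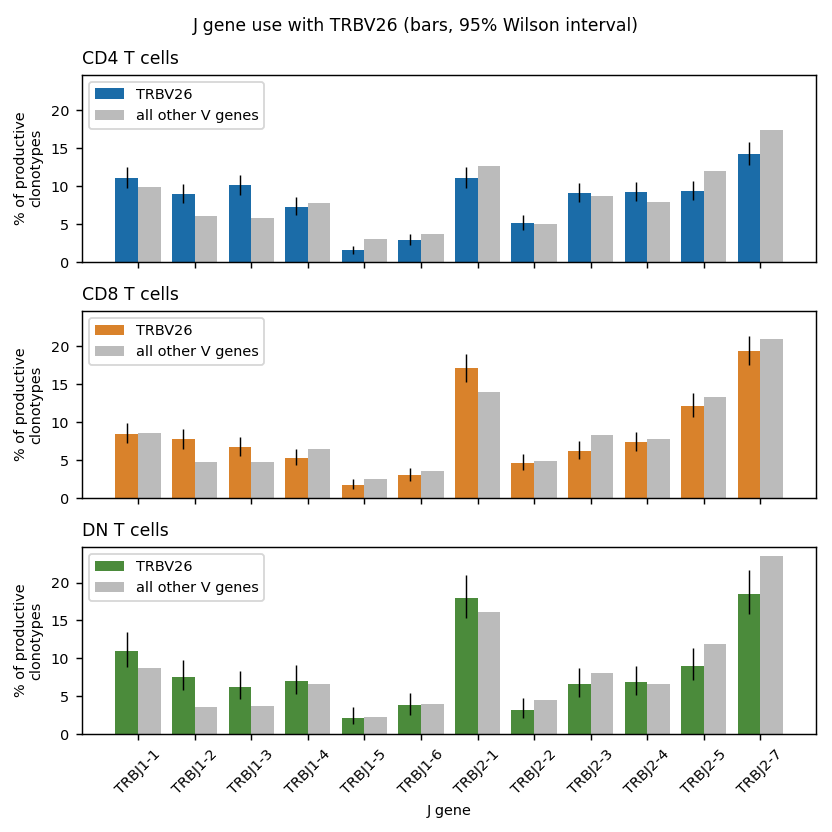
Percentage of productive clonotypes that used each of the 12 TRBJ genes, for TRBV26 (coloured bars, 95% Wilson interval) and all other V genes (grey bars), in the CD4, CD8 and DN libraries. The TRBV26 bars of TRBJ1-2 and TRBJ1-3 were taller than the grey bars in each library, with ratios from 1.42 to 2.09.

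The D gene is the short segment between V and J, and TRBV26 joints held a recognisable TRBD2 less often than those of other V genes. TRBD2 was listed for 15.6% of productive TRBV26 clonotypes in CD4 cells (14.1 to 17.2), 19.7% in CD8 cells (17.8 to 21.7) and 23.6% in DN cells (20.6 to 27.0). With other V genes it was listed for 29.5%, 32.3% and 40.0%. The ratios were 0.529, 0.608 and 0.591 (Fisher's exact test, adjusted p = 6.17e-45, 8.29e-28 and 4.34e-18), and TRBV26 stood in place 2, 2 and 4 from the lowest of the 22 V genes.

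TRBD2 lies behind the TRBJ1 cluster on the chromosome and is normally joined to TRBJ2 genes, so a lower TRBJ2 share lowers it. Among clonotypes with a TRBJ2 gene alone, TRBD2 was still listed for 22.5%, 28.2% and 35.2% with TRBV26 against 43.2%, 44.3% and 53.8% with other V genes (ratios 0.520, 0.638 and 0.654, exact test, adjusted p = 7.09e-47, 1.16e-25 and 2.22e-13). The ratio of shares was thus close to that over all J genes in CD4 T cells (0.520 beside 0.529). It was somewhat nearer to 1 in CD8 (0.638 beside 0.608) and DN T cells (0.654 beside 0.591). The shares of the other V genes were also higher within TRBJ2, and the gap in percentage points was wider there in each library. Within TRBJ2, TRBD1 was listed for 43.6%, 35.2% and 35.0% with TRBV26 and 34.8%, 33.7% and 27.2% with other V genes.

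No D gene was listed for 37.3% of productive TRBV26 clonotypes in CD4 cells, 40.0% in CD8 cells and 36.9% in DN cells, against 25.9%, 26.0% and 23.1% with other V genes (ratios 1.44, 1.54 and 1.60, exact test, adjusted p = 6.88e-27, 1.92e-32 and 7.93e-15). Within TRBJ1, where TRBD1 is the D gene that normally joins, TRBD1 was listed for 52.0%, 50.8% and 46.7% with TRBV26 and 61.8%, 60.0% and 60.5% with other V genes. A D gene is listed only where enough of its bases remain, so its absence from the list is not its absence from the joint. The stretch between V and J was counted as the bases outside the commonest V start and J end. It was shortest in clonotypes with no D listed, with a mean of 7.25 bases in CD4 cells, 7.43 in CD8 cells and 7.94 in DN cells. Over all productive TRBV26 clonotypes it was 9.69, 9.78 and 10.5 bases.

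**Figure D4:**
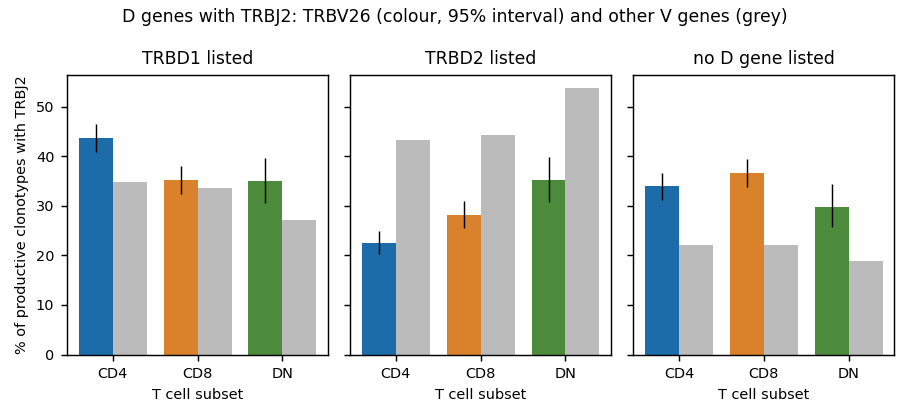
Percentage of productive clonotypes with a TRBJ2 gene for which TRBD1, TRBD2 or no D gene was listed, for TRBV26 (coloured bars, 95% Wilson interval) and other V genes (grey bars), in the CD4, CD8 and DN libraries. TRBD2 was listed for 22.5%, 28.2% and 35.2% of TRBV26 clonotypes, below the grey bars, and no D gene was listed more often than with other V genes.

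The share of productive TRBV26 clonotypes that kept the whole commonest V start was lower in the CD4 library than in the others. That start was read from the clonotypes and not from a germline sequence. The cause was not tested, and the V starts of other V genes were not measured. The full 15 bases of the commonest V start remained in 35.3% of productive TRBV26 clonotypes of CD4 (33.3 to 37.4), 45.2% of CD8 (42.8 to 47.6) and 40.6% of DN T cells (37.0 to 44.3). CD4 was lower than CD8 T cells (Fisher's exact test, adjusted p = 2.10e-08 over 18 comparisons) and lower than DN T cells (adjusted p = 0.0484), whereas DN against CD8 did not pass the threshold (adjusted p = 0.111). The last 3 of these bases encode leucine, the residue in place 5 of the CDR3, counted from its first cysteine. Leucine stood there in 54.3% of CD4, 60.4% of CD8 and 55.6% of DN TRBV26 clonotypes (CD4 against CD8, exact test, adjusted p = 0.00133).

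Arginine, a positively charged residue, took place 5 in 12.2% of CD4 (10.8 to 13.6), 7.01% of CD8 (5.86 to 8.36) and 8.18% of DN TRBV26 clonotypes (6.35 to 10.5). Its share in CD4 was 1.74 times that in CD8 T cells (exact test, adjusted p = 1.35e-06), DN was 0.672 times CD4 (adjusted p = 0.0181), and DN against CD8 did not pass the threshold (ratio 1.17, adjusted p = 0.606). With the other V genes together, whose own ends differ from that of TRBV26, arginine took this place in 8.79%, 8.34% and 9.28%. Proline, the next most frequent residue after leucine, was at 17.2%, 14.9% and 15.9%, and no pair of libraries passed the threshold. The V end and the residue in place 5 were chosen after values of the joints had been seen.

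CDR3 loops with TRBV26 were of middling length among the V genes and slightly below the mean of the others together. The mean length was 13.7 ± 1.31 residues in CD4 cells (SD over 2063 productive clonotypes), 13.7 ± 1.47 in CD8 cells (1613 clonotypes) and 13.9 ± 1.59 in DN cells (685 clonotypes), against 13.9, 13.9 and 14.2 with other V genes. The median was 14 in each. From the shortest mean, TRBV26 stood in place 8 of 22 V genes in CD4 cells, 9 in CD8 cells and 8 in DN cells. With the other V genes weighted to the J genes of TRBV26, their means remained at 13.9, 13.9 and 14.2, and TRBV26 was shorter with 11 of 12 J genes in CD4 cells, 8 in CD8 cells and 10 in DN cells.

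TRBV26 had lower shares than other V genes at 15 and 16 residues. Loops of 15 residues made up 18.5%, 20.8% and 23.6% in CD4, CD8 and DN T cells, against 23.3%, 21.9% and 26.4%. Those of 16 residues made up 5.77%, 6.76% and 10.5%, against 9.38%, 10.1% and 13.3%. At the ends of the length range, TRBV26 differed more in long loops than in short ones in CD4 and CD8 T cells. Loops of 17 or more residues made up 0.969%, 2.05% and 2.34% of TRBV26 clonotypes, against 2.94%, 3.18% and 4.82% with other V genes. Loops of 11 or fewer residues made up 5.24%, 6.20% and 6.72%, against 5.09%, 6.02% and 4.36%. No test was run on lengths. These differences of means were small against the SD over clonotypes.

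TRBV26 clonotypes were mostly small. A single read stood behind 63.5% of productive TRBV26 clonotypes in CD4 cells, 70.7% in CD8 cells and 60.6% in DN cells, against 60.8%, 68.1% and 54.9% with other V genes. Mean reads per clonotype were 2.53, 1.67 and 4.29, against 3.10, 1.88 and 4.86, and the median was 1. In CD4 T cells 2 TRBV26 clonotypes were among the 100 largest TCR beta clonotypes, in CD8 2 and in DN T cells 1. Among the 1000 largest, ties included, there were 39, 18 and 17 productive TRBV26 clonotypes beside 1004, 1055 and 982 of other V genes. Of productive clonotypes of any size, TRBV26 held 4.995%, 2.09% and 1.79%.

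The DN reads of TRBV26 were concentrated in few clonotypes. The 10 largest held 38.2% of productive TRBV26 reads in DN T cells, 15.4% in CD4 and 10.2% in CD8 T cells. Because the DN library had the fewest TRBV26 clonotypes, 10 are also a larger part of its clonotypes.

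The largest DN clonotype, a TRBJ2-7 joint with TRBD1, had 316 reads in DN, 53 in CD8 and 9 in CD4 T cells. It was clonotype 35 of DN, 75 of CD8 and 1832 of CD4 T cells. The TRBJ2-1 clonotype in place 2 had 148 reads in DN, 22 in CD8 and 2 in CD4 T cells. The TRBJ2-5 clonotype in place 3 had 129, 17 and 4. Because these 3 were chosen as the largest of DN, higher reads in DN than elsewhere follow in part from that choice. Between the other libraries, all 3 had more reads in CD8 than in CD4 T cells.

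The largest TRBV26 clonotypes of the other subsets had a different spread. The largest of CD4, a TRBJ2-4 joint with a single base outside the V and J ends, had 178 reads in CD4 cells, 1 in CD8 cells and 2 in DN cells and was clonotype 32 of its library. The TRBJ2-1 clonotype next to it had 120 reads in CD4 cells, 4 in CD8 cells and 1 in DN cells, and the TRBJ2-5 clonotype in place 3 had 85 in CD4 and 0 in both other libraries. The largest of CD8, a TRBJ2-5 joint, had 73 reads in CD8 and 0 in the other libraries. The CD8 clonotype in place 3, with a loop of 10 residues, had 24 reads in CD8, 2 in CD4 and 2 in DN T cells. With 0 reads, the depth allowed a share of up to 0.00224% in CD4 cells, 0.00199% in CD8 cells and 0.00154% in DN cells.

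Sharing was followed from each of the 20 largest productive TRBV26 clonotypes of a library into the others. All 20 of DN were found in CD8 T cells, where their share of reads was 7.15% to 39.6% of that in DN (median 17.6%), and 10 were found in CD4 T cells. Of the 20 of CD4, 11 were found in CD8 and 5 in DN T cells. Of the 20 of CD8, 8 were found in CD4 and 10 in DN T cells. Large clonotypes are the easiest to find again, and these counts carry no test. The largest clonotypes of other V genes were not followed, so the counts do not show a trait particular to TRBV26. Over clonotypes of all sizes, those found in CD8 held 64.9% of DN reads with TRBV26 and 67.9% with other V genes. A lower share in the other library also follows in part from choosing the largest of a library.

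**Figure D5:**
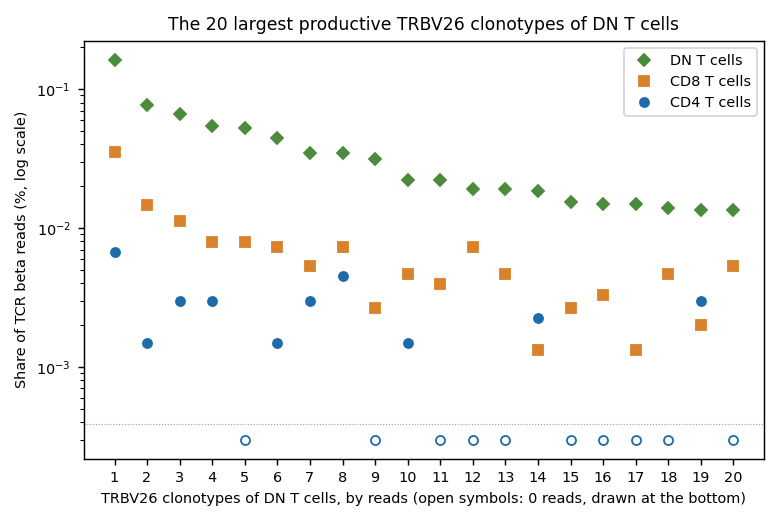
Share of TCR beta reads (%, log scale) of the 20 largest productive TRBV26 clonotypes of DN T cells in the DN, CD8 and CD4 libraries; open symbols at the bottom stand for 0 reads. All 20 had reads in CD8 T cells, at a lower share than in DN, and 10 had reads in CD4 T cells. They were chosen as the largest in DN, so a lower share elsewhere follows in part from the choice. The largest clonotypes of other V genes were not followed.

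Over all sizes, 4117 distinct productive TRBV26 clonotypes were seen, of which 1923 were found in CD4 only (46.7%, against 24.3% of clonotypes of other V genes), 1446 in CD8 only (35.1% against 47.5%) and 532 in DN T cells only (12.9% against 20.4%). A further 76 were found in CD8 and DN (1.85% against 3.96%), 63 in CD4 and CD8 (1.53% against 1.34%) and 49 in CD4 and DN T cells (1.19% against 1.19%). All 3 libraries held 28 (0.680% against 1.32%). These shares follow the higher share of TRBV26 in CD4 T cells as well as the overlap. The 28 held 38.9% of productive TRBV26 reads in DN, 8.78% in CD4 and 7.58% in CD8 T cells. One of them, the TRBJ2-7 joint with a loop of 9 residues shown above, had 67 reads in DN, 11 in CD8 and 6 in CD4 T cells.

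Of the 685 productive TRBV26 clonotypes of DN T cells, 104 were found in CD8 T cells (15.2%, 12.7 to 18.1), against 19.7% with other V genes (ratio 0.772, Fisher's exact test, adjusted p = 0.00827). In CD4 T cells 77 were found (11.2%, 9.09 to 13.8), against 9.36% (ratio 1.20, exact test, adjusted p = 0.191). Of the 2063 of CD4 T cells, 91 were found in CD8 T cells (4.41%), against 9.46% (ratio 0.467, exact test, adjusted p = 3.49e-16). V genes that were at least 25% higher or 20% lower than the rest made up 36.4% for DN in CD8, 45.5% for DN in CD4 and 72.7% for CD4 in CD8 T cells. TRBV26 clonotypes of DN and of CD4 T cells were thus found in CD8 T cells less often than those of other V genes. Counted from the CD8 side, the same 91 clonotypes shared with CD4 were 5.64% of the TRBV26 clonotypes of CD8, against 4.91% with other V genes (no test), so the direction depended on the library counted from, and TRBV26 was 2.34 times as frequent in CD4 as in CD8 T cells. From the CD8 side, the 104 shared with DN were 6.45%, against 9.76%. These comparisons share libraries and are not independent, and the DN to CD8 value depended on how many reads a clonotype had to have: it was 0.988 among clonotypes of at least 2 reads and 1.07 among those of at least 5, neither past the threshold. Weighted by reads, the shared clonotypes held 64.9% of DN TRBV26 reads for CD8 and 44.6% for CD4, against 67.9% and 50.3% with other V genes.

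The same protein loop was also reached by different joints. A pair of CD4 clonotypes with TRBJ2-2 encode one and the same CDR3 from different bases, and it is shown because both members were large. It was chosen after its values were seen, as the joints of one protein CDR3 of which the member in place 2 by reads had the most reads. Another joint of this CDR3 had 1 read, in DN T cells, and is not shown. The CDR3 is 1 of 276 reached by several joints among 3748 TRBV26 protein CDR3s (7.36%, against 8.65% with other V genes).
CD4 pair, with TRBD1: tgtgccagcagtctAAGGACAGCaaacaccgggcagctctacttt
CD4 pair, no D listed: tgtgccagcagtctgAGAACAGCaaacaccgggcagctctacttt

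The member with TRBD1 had 73 reads in CD4 cells, 3 in CD8 cells and 0 in DN cells, and the other had 64 in CD4 and 0 elsewhere. They were clonotypes 131 and 157 of CD4 T cells. Within a library, protein CDR3s reached by several TRBV26 joints made up 6.55% in CD4 cells, 4.24% in CD8 cells and 3.79% in DN cells, against 5.21%, 6.87% and 5.12% with other V genes, and the number of clonotypes of a V gene bears on this share.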

How the data were processed

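Per the authors' methods, TCR libraries were prepared with the Takara SMARTer Mouse TCRα/β kit and clonotypes were assembled with MiXCR. The version, settings and genome build are not given in the sources used here. The authors deposited 1 table per library with the count of reads of each clonotype, not normalized, and its fraction of the reads of that table. The count was used here, and the fraction was only checked against it. Counts without molecular identifiers include PCR copies, and a sequencing error can appear as a clonotype of few reads.

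Clonotypes (nucleotide CDR3, V gene, J gene) with TRB genes were analysed with Python, pandas 2.3.3 and SciPy 1.17.1. A clonotype was nonproductive if its translated CDR3 held a frame shift or a stop. Shares have 95% Wilson intervals. Clonotypes were compared by two-sided Fisher's exact tests over the 22 V genes with at least 100 clonotypes over the libraries, Benjamini-Hochberg adjusted over all V genes (for J and D genes, all pairs) and libraries, with a threshold of 0.05. Odds ratios of TRBV26 against other V genes were compared between libraries with Zelen's exact test. Ends of V and J genes were read from the clonotypes themselves, as the bases that at least 65% of them shared, position by position. The scripts recovered 9 of 9 known quantities within 15% in data simulated with known answers, most of them with 200000 clonotypes per library. These were ratios of V gene shares, nonproductive ratios, the number of clonotypes at a smaller depth and the merging of errors. J and D use, sharing, V and J ends, lengths and Zelen's test were not covered.

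Named were the 3 productive and the 1 nonproductive TRBV26 clonotypes with the most reads of each library, those in the top 100, and the 3 found in all libraries with the highest smallest count. V genes named were the comparators TRBV12-1, TRBV12-2, TRBV15, TRBV16, TRBV19 and TRBV29, the highest and lowest of a measure and the 3 nearest in pattern. The gene, lists and tests were chosen with earlier results of these data known. Alternatives were reads in place of clonotypes, a minimum of 2 or 5 reads, merging of near-identical or same-protein CDR3s, equal depth and leaving out the 10 largest TRBV26 clonotypes.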

Additional observations from a re-analysis of the deposited data

Results flagged for a closer look

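One difference between libraries passed a test of the difference itself. The TRBJ2 share of productive TRBV26 clonotypes relative to other V genes differed between CD8 and DN T cells, with an odds ratio in CD8 that was 1.32 times that in DN T cells (Zelen's exact test of equal odds ratios, Benjamini-Hochberg adjusted p = 0.0487 over 12 comparisons of nonproductive, TRBJ2, TRBD2 and no D shares). The CD8 ratio of shares was 0.965 and the DN ratio 0.878. Counted by reads they were 1.02 and 0.998. The other 11 comparisons did not pass.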

How the results depend on the processing

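Of 106 values under an alternative, 79 kept direction, side of the threshold and, for means, size. The CD4 to CD8 and DN to CD4 ratios of shares passed the threshold under every alternative run (2.19 to 2.39 and 0.337 to 0.396). Among clonotypes of at least 5 reads, the threshold was missed by the DN to CD8 ratio of shares (0.945), the nonproductive ratio in DN (0.523), the TRBJ2 ratios in CD4 (0.912) and DN T cells (0.906) and the ratio for CD4 clonotypes found in CD8 (0.302), while the TRBJ2 ratio in CD8 was 1.08 and that for DN clonotypes found in CD4 0.725, also short of it. Few clonotypes are left there, and with 0 nonproductive TRBV26 clonotypes in CD4 and CD8 T cells no nonproductive ratio could be given. The ratio for DN clonotypes found in CD8 went from 0.772 to 0.988 at 2 reads and to 1.07, the other direction, at 5 reads, and the cause was not tested. By reads, the TRBJ2 ratios were 1.02 in CD8 and 0.998 in DN, both short of the threshold. The ratio for DN clonotypes found in CD4 went from 1.20 to 0.886 by reads, the other direction. It then passed the threshold (exact test on reads, adjusted p = 1.24e-09), although reads of one clonotype are not independent. Without the 10 largest TRBV26 clonotypes the TRBJ2 ratio in CD8 was 0.962 and passed the threshold. Mean CDR3 length was 13.6 residues in CD8 and 13.7 in DN by reads, 13.6 in CD8 at 2 reads, and 13.5 in CD8 and 13.8 in DN at 5 reads. Mean reads per clonotype, which such limits set, were 5.19, 3.29 and 9.35 in CD4, CD8 and DN at 2 reads, 14.1, 10.9 and 24.9 at 5 reads, and 2.15, 1.51 and 2.69 without the 10 largest. No paired analysis was possible because each subset had 1 library. With 1 mouse and most clonotypes at 1 read, an unshared clonotype may be present below the depth of the other library.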
